A study of Mus musculus with 12 samples.

Results

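The genes described here encode collagens, laminins and other proteins of the extracellular matrix, together with the Adamts proteases that process them. They were chosen by name alone, as gene symbols of the collagen, laminin, fibulin, fibrillin and Adamts families plus Fn1, Eln, Nid1, Nid2, Hspg2, Sparc, Lum, Dcn, Bgn and Postn. Of the 12845 genes in the deposited tables, 83 met this rule. A further 7 protein-coding genes of the mouse annotation met it too and were not analysed here: Adamts8, Col10a1, Col17a1, Col19a1, Col28a1, Col8a1 and Lamb3. RNA was sequenced from mouse embryonic gonads at embryonic stage E13.5, taken from offspring of Oct4-GFP males (strain label Oct4GFPxICR), in which green fluorescent protein (GFP) marks germ cells. Cells were sorted by flow cytometry into primordial germ cells (PGCs, GFP positive), from which eggs and sperm derive, and soma, the GFP-negative remainder. The groups, each of 3 libraries, were female PGC, female soma, male PGC and male soma. The GFP-negative sort holds every somatic cell type of the gonad at once, and the labels do not say whether a library came from 1 embryo or from a pool, so p-values measure only the spread between these libraries, which may be technical.

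The extracellular matrix is the protein scaffold outside cells, and it comes in 2 main architectures. Fibrillar collagens (types I, II, III, V, XI, XXIV and XXVII) assemble into the rope-like fibrils of connective tissue and are made mainly by mesenchymal cells. Basement membranes are thin sheets that underlie epithelia and surround some other cells, built from a laminin network and a collagen IV network that are joined by nidogens and the proteoglycan perlecan. In the fetal testis a basement membrane encloses the cords that Sertoli cells form around the germ cells, whereas the fetal ovary at this age has less sharply bounded germ cell nests. By these roles the 83 genes were divided into 11 fibrillar collagens, 21 basement membrane genes, 6 collagen VI chains, 8 fibril-associated collagens, 6 other collagens, 7 elastic fibre genes, 3 small leucine-rich proteoglycans, 3 adhesive and matricellular genes and 18 Adamts proteases.

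Levels are given as CPM, read counts scaled to the library's total in the table, from reads recovered from the deposited values. The libraries held between 6454322 reads (female PGC replicate 2) and 24791414 reads (male soma replicate 2). The labels of the sort held against marker genes. The 10 germ cell markers summed to 3709 to 4075 CPM in female PGCs against 78.3 to 239.5 CPM in female soma, and to 5503 to 5741 CPM in male PGCs against 76.1 to 93.6 CPM in male soma. The 6 stromal markers measured, among them Pdgfra and Nr2f2, summed to 22.3 to 33.2 CPM in female PGCs against 2113 to 2532 CPM in female soma. In male PGCs they summed to 6.93 to 14.2 CPM, against 2850 to 3003 CPM in male soma. None of the 6 was at 0 reads in either PGC group. The PGC libraries carried larger shares of supporting cell markers: the 10 Sertoli markers averaged 7.57% of their male soma sum in male PGCs, and the 7 pregranulosa markers averaged 9.23% of their female soma sum in female PGCs. The pregranulosa markers were uneven in females, with Irx3 at 19.9 CPM in PGCs against 71.7 CPM in soma and Bmp2 at 10.2 against 28.3 CPM. The others held smaller shares, such as Foxl2 at 2.18 against 62.1 CPM. Among the Sertoli markers Cst9 was at 0 reads in female PGCs, and none was at 0 in male PGCs. Tests are limma fits on the log2 values of the read depth table, unless the cell number table is named, over all 12845 genes, with a Benjamini-Hochberg adjusted p under 0.05 as the threshold. The read depth values are a compressed transform of the reads, so a difference on their scale is smaller than the log2 ratio of CPM, most of all for genes at low levels.

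Matrix genes made up a far smaller share of the RNA in PGCs than in soma. The 83 genes together took 2671 to 2715 CPM in female PGCs, against 28310 to 31340 CPM in female soma. They took 2445 to 2546 CPM in male PGCs, against 31150 to 34410 CPM in male soma. In females 3 of the 83 were called higher in PGCs and 70 lower, where 38.7% of all genes were called higher and 42.3% lower. In males 5 were called higher and 75 lower, where 39.1% of all genes were called higher and 43.7% lower. The median log2 difference of the 83 genes was -2.65 in females and -3.52 in males, against -0.05 and -0.06 over all genes.

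These counts have to be read against the filter of the deposited tables, in which every gene has at least 5.07 CPM in at least 3 libraries. A gene was counted as reaching that level in PGCs, or in soma, if at least 3 such libraries of either sex did so. Col1a1 was so counted in PGCs, though neither PGC group had all its libraries at that level. Of the 83 genes, 42 reached the level only in soma, 40 did so in both PGCs and soma, and 1, Col9a1, did so only in PGCs. The 42 were thus present because of their level in soma and could hardly be other than lower in PGCs. Likewise Col9a1 was present because of its level in PGCs and could hardly be other than higher there. Of the 40 that reached the level in both, 2 were called higher and 30 lower in female PGCs, and their median difference was -1.57. In male PGCs 4 of the 40 were called higher and 33 lower, and the median was -3.03. In sorted populations of this kind, fewer matrix-producing cells and less matrix RNA per cell cannot be told apart.

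**Figure D1:**
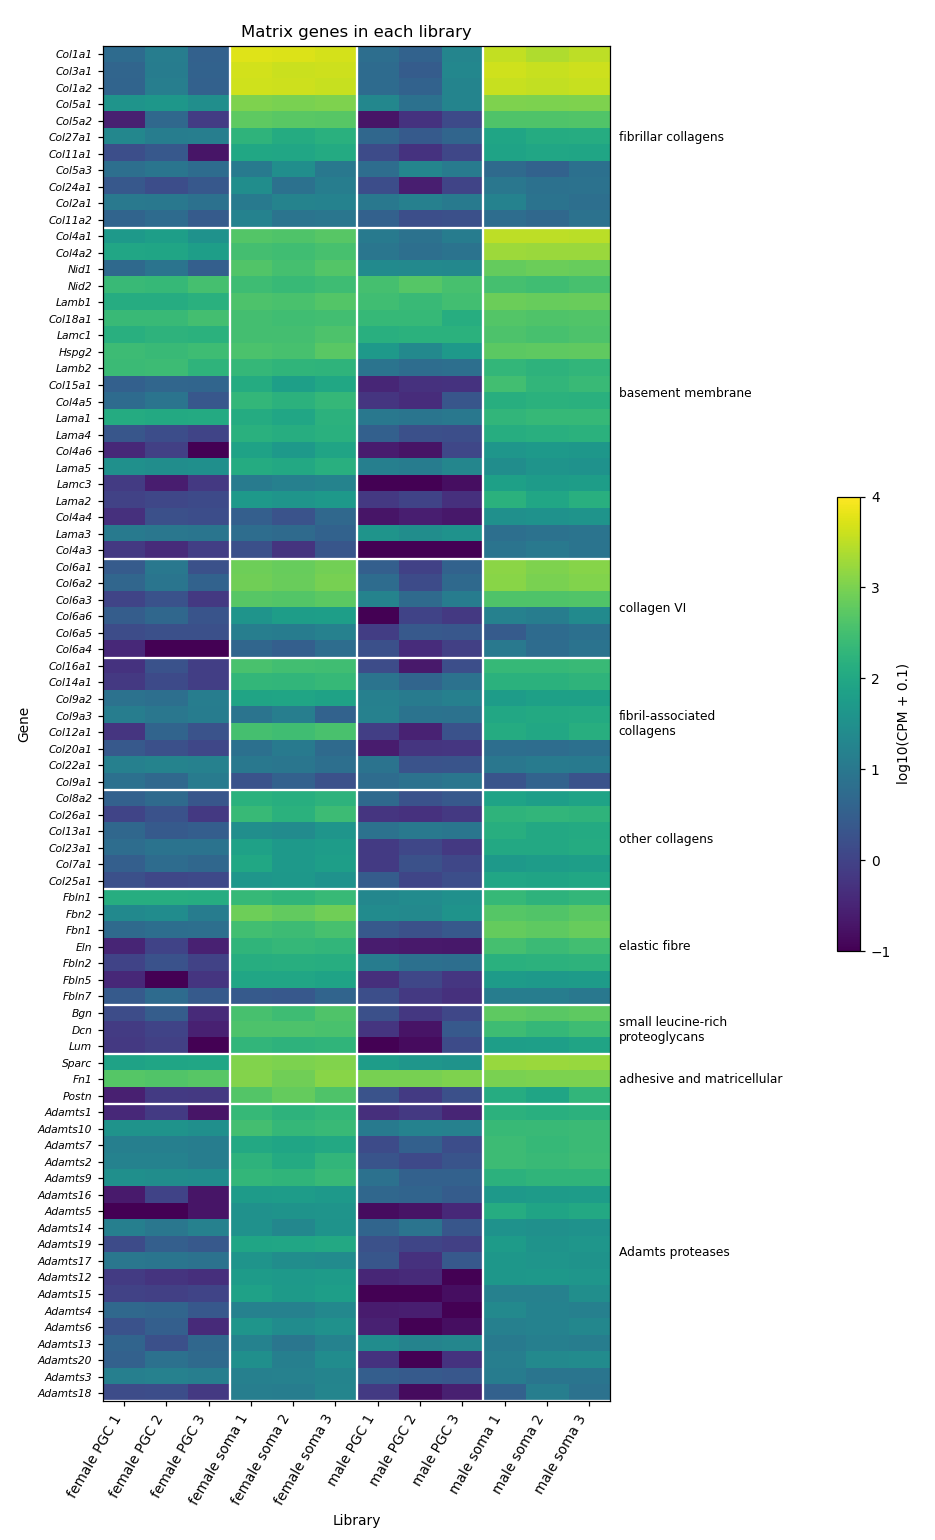
Level of the matrix genes, all of the 83 but 1 (rows, grouped by class and ordered within it by CPM per kb of exon in soma) in each of the 12 libraries (columns), as log10(CPM + 0.1), from dark (low) to yellow (high). Col1a1, Col3a1 and Col1a2 at the top are bright in soma and dark in all PGC libraries, while several basement membrane genes, such as Nid2, Lamb1, Lamc1 and Col18a1, keep similar shades across all 4 groups.

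The fibrillar collagens of types I and III were abundant in soma and low in the PGC libraries. Per kb of exon Col1a1 and Col3a1 had the highest soma levels of the 83 genes, at 636 and 423 CPM per kb over both sexes. Col1a1, the alpha 1 chain of type I collagen (chromosome 11, 94936224-94953042, GRCm38), had 5.46, 13.2 and 3.54 CPM in female PGCs, against 5684, 5507 and 4775 CPM in female soma. It had 6.26, 3.65 and 18.9 CPM in male PGCs, against 3415, 2484 and 3193 CPM in male soma. The groups did not overlap in either sex, and the PGC means were 0.139% (female) and 0.316% (male) of the soma means. The log2 difference was -7.56 ± 0.32 in females and -6.63 ± 0.32 in males (SE, adjusted p 1.1e-10 and 1.8e-10).

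Col1a2, which encodes the partner chain of type I collagen (chromosome 6), had 3.94, 13.9 and 3.44 CPM in female PGCs, against 4371, 4142 and 3868 CPM in female soma. In male PGCs it had 5.59, 3.69 and 17.6 CPM, against 3848, 3413 and 3853 CPM in male soma. Col3a1, the only chain of type III collagen (chromosome 1, 45311538-45349706), averaged 6.81 ± 4.98 CPM in female PGCs and 4208 ± 269 CPM in female soma, and 9.71 ± 9.78 CPM in male PGCs and 4095 ± 289 CPM in male soma (SD, n = 3 each). For all 3 genes the highest PGC libraries were female replicate 2 and male replicate 3. The same libraries had the highest stromal marker sums of their groups, 33.2 and 14.2 CPM, but not every marker ran this way. In male PGCs Pdgfra and Nr2f2 were highest in replicate 1 (3.63 and 2.77 CPM) and the others in replicate 3. In female PGCs Pdgfrb was lowest in replicate 2 (0.620 CPM), Dlk1 was highest in replicate 3 (18.8 CPM), and the others were highest in replicate 2. The part of stromal RNA in these reads was not tested.

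Type V collagen, which initiates and limits the growth of type I fibrils, was less extreme. Col5a1 averaged 38.2 ± 7.54 CPM in female PGCs, or 3.63% of its 1050 ± 59.5 CPM in female soma, and 15.4 ± 7.18 CPM in male PGCs, or 1.44% of its 1067 ± 47.4 CPM in male soma. It differed by -3.85 ± 0.20 in females and -4.80 ± 0.20 in males (SE, adjusted p 5.3e-10 and 4e-11). Col5a2, the neighbour of Col3a1 on chromosome 1 with 24614 bases between the genes, was at 0.352% and 0.139% of soma in female and male PGCs.

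Col5a3 and Col2a1 were the fibrillar genes that broke this pattern, both at low levels. Col5a3 had 6.49, 8.83 and 5.83 CPM in female PGCs, against 11.3, 30.1 and 9.79 CPM in female soma. It had 5.93, 18.6 and 11.7 CPM in male PGCs, against 5.35, 3.63 and 7.07 CPM in male soma. It was called lower in female PGCs (-0.62 ± 0.25, adjusted p 0.036) and higher in male PGCs (0.63 ± 0.25, adjusted p 0.031), and the values of the male groups overlapped. Without female soma replicate 2, which had the 30.1 CPM, the female difference was -0.33 with an adjusted p of 0.19, and the call was also lost without female PGC replicate 1 or 3. Without male PGC replicate 2, which had the 18.6 CPM, the male difference was 0.41 with an adjusted p of 0.15, and the call was also lost without male PGC replicate 3 or male soma replicate 1 or 2. Col2a1, the cartilage collagen, had 7.17 to 10.3 CPM in female PGCs against 11.1 to 17.0 CPM in female soma, and 9.75 to 14.9 CPM in male PGCs against 6.47 to 16.2 CPM in male soma. It passed the test in neither sex.

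Over the class, 10 of the 11 fibrillar collagens were called lower and none higher in female PGCs, with Col2a1 not passing. In male PGCs 9 were called lower and 1, Col5a3, higher. The median difference was -3.85 in females and -4.59 in males. In summed CPM the class stood at 73.4 to 130.1 CPM in female PGCs against 14680 to 16540 CPM in female soma, and at 55.8 to 107.7 CPM in male PGCs against 11330 to 13280 CPM in male soma. That is 0.647% of the soma mean in females and 0.606% in males. The stromal markers stood at 1.11% in female and 0.383% in male PGCs, above the fibrillar share in females and below it in males. The part of stromal RNA in the fibrillar share was not tested.

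Basement membrane genes were divided among themselves in both sexes. Their sum was 1616 to 1687 CPM in female PGCs, against 3473 to 4435 CPM in female soma, so PGCs held 41.3% of the soma mean. In males the sum was 1106 to 1216 CPM in PGCs, against 9229 to 9548 CPM in soma, or 12.4%. In female PGCs 1 of 21 was called higher and 14 lower, with a median difference of -1.26. In male PGCs 2 were called higher and 18 lower, and the median was -3.46. In CPM the median fibrillar collagen stood at 3.63% of its soma level in female PGCs and the median basement membrane gene at 33.0%. In male PGCs these medians were 1.44% and 3.27%. The number of genes that reached the deposited filter in both PGCs and soma was 7 of 11 for fibrillar and 13 of 21 for basement membrane genes. Within these, the median difference of fibrillar genes was -3.85 in females and -4.80 in males, and that of basement membrane genes was -0.53 in females and -1.01 in males. The sex with the wider gap between the class medians was thus female over all members and male over those that reached the filter in both fractions. The classes were chosen by name and were not tested against each other.

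**Figure D2:**
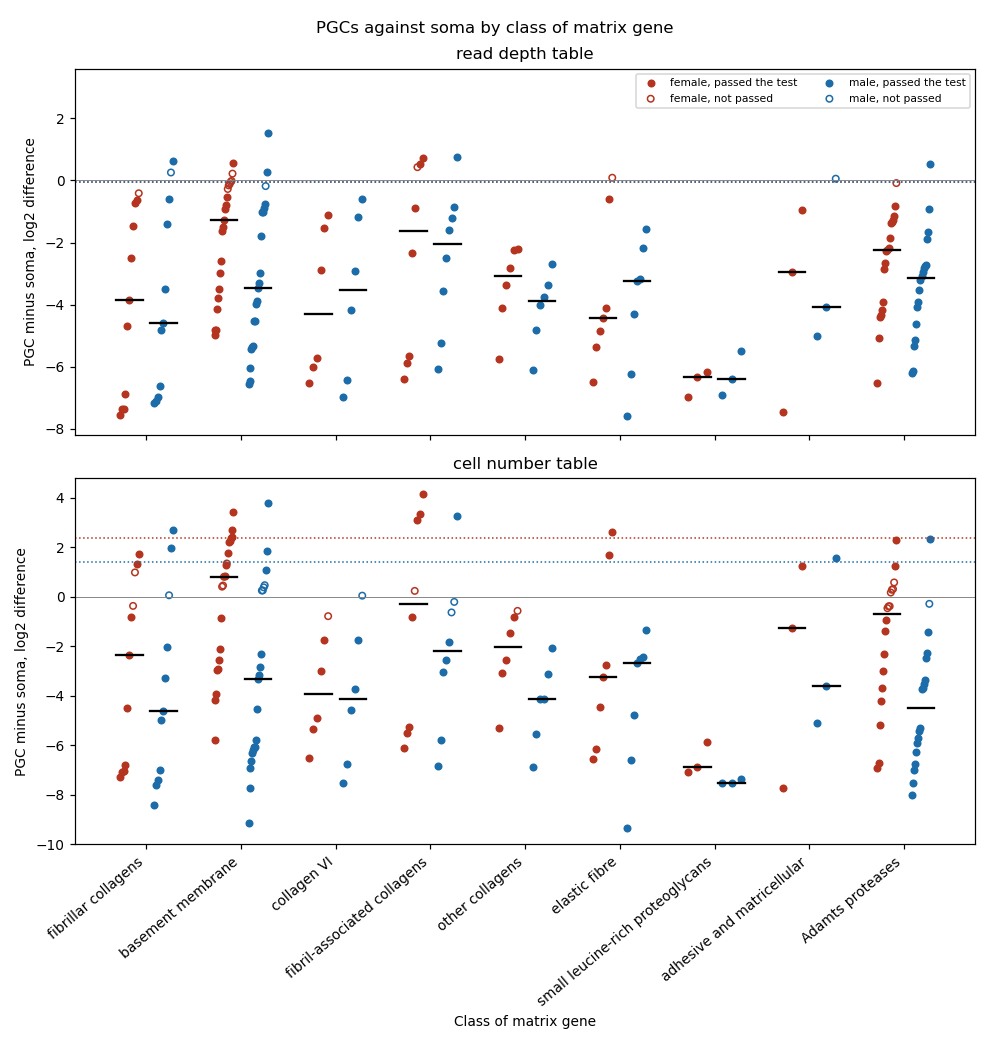
Difference between PGCs and soma (log2) for each matrix gene, by class, in females (red, left in each class) and males (blue, right), in the read depth table (top) and the cell number table (bottom). Filled points passed the test, open points did not, black bars are class medians and dotted lines are the medians of all 12845 genes in each sex. In the top panel the class medians over all members of basement membrane and fibrillar genes lie at -1.26 and -3.85 in females and at -3.46 and -4.59 in males.

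Collagen IV forms the covalent network of basement membranes from 6 chains whose genes lie in head-to-head pairs. Each pair is transcribed in opposite directions from starts that lie close together. The letters around these starts are shown 5′ to 3′, from RefSeq GRCm38.p6, with capitals for a GC box, the letters GGGCGG or, on the other strand, CCGCCC. Col4a1 and Col4a2 share their printed stretch, as do Col4a4 and Col4a3, whereas those of Col4a6 and Col4a5 are separate. For Col4a1 and Col4a2 the 22 bases are the stretch where the 2 annotated starts overlap (chr8:11312805-11312826, plus strand). For Col4a4 and Col4a3 the 71 bases are the whole gap between the starts (chr1:82586850-82586920, plus strand). Col4a6 and Col4a5 are 1308 bases apart in GENCODE vM21, so the stretch before each start is given (chrX:141474077-141474326, minus strand, and chrX:141475169-141475384, plus strand).
Col4a1-Col4a2: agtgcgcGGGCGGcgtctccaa
Col4a4-Col4a3: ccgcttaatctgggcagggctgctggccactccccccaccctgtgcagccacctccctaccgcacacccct
Col4a6: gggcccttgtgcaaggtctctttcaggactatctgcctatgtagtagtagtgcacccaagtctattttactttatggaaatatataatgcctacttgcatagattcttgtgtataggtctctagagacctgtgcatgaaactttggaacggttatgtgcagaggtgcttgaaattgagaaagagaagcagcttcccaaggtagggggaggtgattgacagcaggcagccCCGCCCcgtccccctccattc
Col4a5: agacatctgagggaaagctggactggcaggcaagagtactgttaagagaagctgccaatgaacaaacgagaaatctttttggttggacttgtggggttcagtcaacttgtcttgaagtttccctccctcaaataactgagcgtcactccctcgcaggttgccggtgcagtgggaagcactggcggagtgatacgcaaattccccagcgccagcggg
The shared stretch of Col4a1 and Col4a2 and the stretch before Col4a6 each hold 1 GC box, and the other stretches hold none. Of all RefSeq promoter windows, 4.09%, 20.7%, 32.7% and 27.9% hold a GC box within a stretch of the same length and position, in the order printed. Both strands were searched with the motif on its own. Over whole windows of 250 bases before the start, a GC box was found in 37 of 60 windows of matrix genes (61.7%; 54 of the 83 genes had a window) and in 32.7% of 32851 windows of all genes.

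Col4a1 and Col4a2, the chains found in nearly all basement membranes, had the largest sex differences of PGC level relative to soma among the 83 genes in the read depth table. By voom on the reads other genes came before them, among them Col4a3 at 7.49 against 5.83 for Col4a2 and 4.99 for Col4a1 (log2, female minus male). Col4a3 had 0 reads in male PGCs, so its voom value there rests on the 0.5 reads that voom adds to each count. Col4a1 (chromosome 8, 11198423-11312826, minus strand) had 47.7, 62.7 and 35.0 CPM in female PGCs, against 454, 421 and 504 CPM in female soma. It had 10.9, 7.67 and 12.3 CPM in male PGCs, against 3243, 3138 and 3006 CPM in male soma. All 4 groups were apart from each other, and male soma stood above every other group. The PGC minus soma difference was -2.61 ± 0.14 in females and -6.47 ± 0.14 in males (SE, adjusted p 8.6e-10 and 2.9e-13).

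Col4a2 (chromosome 8, 11312805-11449287, plus strand) followed the same order. It had 90.9, 87.5 and 62.4 CPM in female PGCs, against 328, 294 and 345 CPM in female soma, and 9.18, 6.60 and 7.96 CPM in male PGCs, against 1846, 1779 and 1733 CPM in male soma. Female PGCs held 24.9% of the female soma level of Col4a2 and 10.5% of that of Col4a1, and male PGCs held 0.443% and 0.328% of the male soma levels. Per kb of exon the 2 chains were at 12.1 (Col4a2) and 6.49 (Col4a1) CPM per kb in female PGCs and at 1.20 and 1.38 CPM per kb in male PGCs. The Sertoli marker list stood at 7.57% of its soma sum in male PGCs, and its part in these levels was not tested.

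The other pairs were scarce in PGCs. Col4a4 (chromosome 1, 82448423-82586849, minus strand) had 0.403, 1.55 and 1.43 CPM in female PGCs against 3.22, 1.84 and 4.70 CPM in female soma, and 0.0956, 0.164 and 0.113 CPM in male PGCs against 32.0, 35.9 and 38.5 CPM in male soma. Col4a3 had 0.310 to 0.765 CPM in female PGCs against 0.460 to 2.03 CPM in female soma, which overlapped and did not pass the test (-0.28 ± 0.14, adjusted p 0.084). In male PGCs Col4a3 had 0 reads in all 3 libraries, which allows up to 3 reads over the group, against 8.41, 10.2 and 8.27 CPM in male soma. Col4a3 and Col4a4 are the chains that replace the first pair in the mature kidney glomerulus, and here both were measurable mostly in male soma. The X-linked pair was present in soma of both sexes. Col4a5 averaged 5.29 ± 3.01 CPM in female PGCs and 194 ± 27.2 CPM in female soma, and 0.946 ± 0.944 CPM in male PGCs and 146 ± 9.48 CPM in male soma (SD, n = 3 each). Col4a6 averaged 0.348 ± 0.393 CPM in female PGCs and 69.7 ± 16.3 CPM in female soma, and 0.433 ± 0.555 CPM in male PGCs and 45.4 ± 2.48 CPM in male soma. The female minus male soma difference passed the test for neither Col4a5 nor Col4a6 (0.31 ± 0.32 and 0.45 ± 0.32, adjusted p 0.53 and 0.36). By voom on the reads both were called higher in female soma (0.40 and 0.60, adjusted p 0.025 and 0.012).

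**Figure D3:**
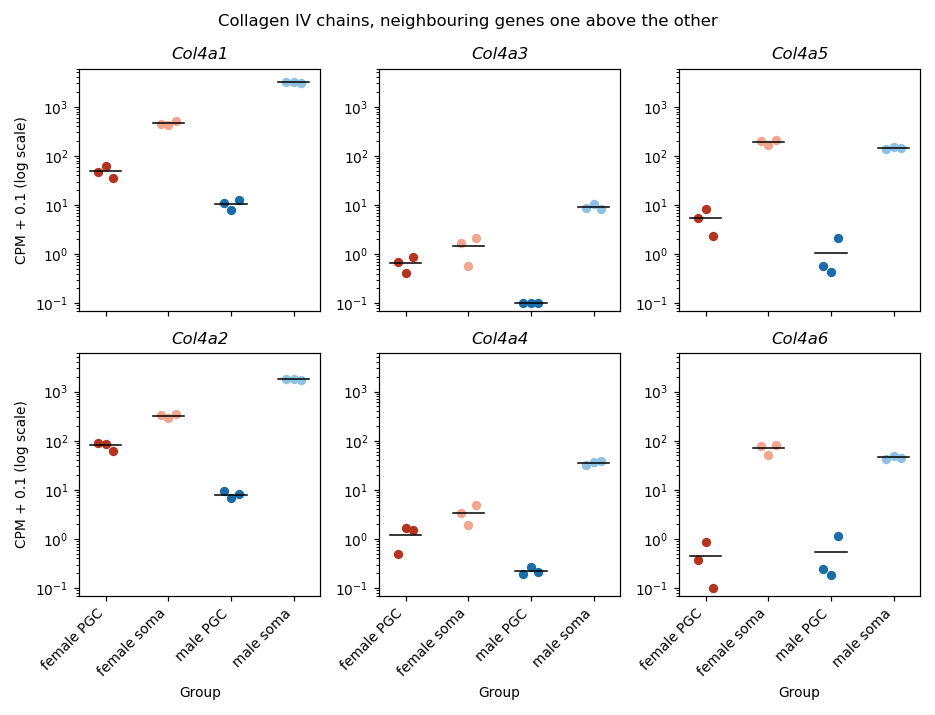
Collagen IV chains in each library, as CPM + 0.1 on a log axis, with points for libraries, black lines for group means and the 2 genes of each head-to-head pair one above the other. Col4a1 and Col4a2 share the order male soma, female soma, female PGC, male PGC, Col4a3 and Col4a4 stand out only in male soma, and Col4a5 and Col4a6 are high in soma of both sexes.

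Laminins are cross-shaped trimers of 1 alpha, 1 beta and 1 gamma chain, and the chains of the embryonic laminin (Lama1, Lamb1, Lamc1) were all present in PGCs. Lamb1, a beta chain (chromosome 12, 31265234-31329644), had 126, 126 and 152 CPM in female PGCs, against 402, 361 and 466 CPM in female soma. It had 295, 243 and 304 CPM in male PGCs, against 741, 699 and 724 CPM in male soma. Lamc1, the gamma chain of most laminins (chromosome 1), had 145, 172 and 159 CPM in female PGCs against 327, 319 and 404 CPM in female soma, and 140, 155 and 153 CPM in male PGCs against 410, 354 and 398 CPM in male soma. Both genes were lower in PGCs of both sexes without overlap, at 33.0% and 38.9% of soma for Lamb1 and 45.3% and 38.5% for Lamc1 in females and males. The pregranulosa marker list stood at 9.23% of its soma sum in female PGCs and the Sertoli list at 7.57% in male PGCs. Within the pregranulosa list Irx3 averaged 19.9 CPM in female PGCs against 71.7 CPM in female soma, and Foxl2 2.18 CPM against 62.1 CPM. The part of supporting cell RNA in the laminin levels was not tested.

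Lama1, the alpha chain of the same laminin (chromosome 17, 67697259-67822647), was at a comparable level in PGCs and soma of females and scarce in male PGCs. It had 120, 111 and 114 CPM in female PGCs, against 117, 89.0 and 166 CPM in female soma, and did not pass the test there (-0.05 ± 0.13, adjusted p 0.74). It had 9.99, 8.70 and 9.94 CPM in male PGCs, against 195, 225 and 221 CPM in male soma (-3.29 ± 0.13, adjusted p 3.8e-11).

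Lamb2, the beta chain that replaces Lamb1 in some mature laminins (chromosome 9, 108479736-108490530), showed the widest difference between the PGCs of the 2 sexes in the read depth table, though not in the cell number table. It had 256, 272 and 179 CPM in female PGCs, against 210, 188 and 181 CPM in female soma. It had 8.13, 6.11 and 6.61 CPM in male PGCs, against 203, 170 and 198 CPM in male soma. The female groups overlapped (0.22 ± 0.12, adjusted p 0.10), and in males PGCs were at 3.65% of soma (-3.46 ± 0.12, adjusted p 8e-12). The beta chains thus ran in opposite directions across the PGCs, with Lamb2 34.0-fold higher and Lamb1 2.08-fold lower in female than in male PGCs. The stretches before their starts are given for comparison, from RefSeq GRCm38.p6 on the plus strand, with GC boxes in capitals and ending where the first annotated exon begins (chr12:31265043-31265233 and chr9:108479612-108479735).
Lamb1: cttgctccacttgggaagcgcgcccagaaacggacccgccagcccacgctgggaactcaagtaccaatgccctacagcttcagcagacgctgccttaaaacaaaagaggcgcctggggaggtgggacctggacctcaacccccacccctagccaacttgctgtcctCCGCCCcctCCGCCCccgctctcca
Lamb2: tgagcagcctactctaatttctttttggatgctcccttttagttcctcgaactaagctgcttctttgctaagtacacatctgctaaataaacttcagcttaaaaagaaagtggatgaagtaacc
The stretch before Lamb1 holds 2 GC boxes and that before Lamb2 none, where 23.1% and 13.3% of all windows hold at least 1 in a stretch of the same length and position.

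Lama3, an alpha chain of epithelial anchoring laminins (chromosome 18), had the largest rise of the 5 members called higher in male PGCs. It had 11.2, 9.30 and 8.70 CPM in female PGCs, against 6.11, 5.22 and 3.56 CPM in female soma. It had 39.3, 28.4 and 35.3 CPM in male PGCs, against 6.55, 7.62 and 8.43 CPM in male soma. It rose by 0.57 ± 0.14 in female and 1.52 ± 0.14 in male PGCs (SE, adjusted p 0.0014 and 1.1e-07), without overlap.

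The chains of vascular and mesenchymal laminins were nearly restricted to soma. Lama4 was at 1.05% (female) and 1.47% (male) of soma in PGCs, and Lama2 at 2.30% and 0.475%. Lamc3 averaged 0.452 ± 0.258 CPM in female PGCs and 14.6 ± 2.61 CPM in female soma, and 1 read in all was found in male PGCs, against 61.1 ± 6.92 CPM in male soma. Lama5, a chain of many adult epithelial laminins, averaged 30.7 ± 1.96 CPM in female PGCs and 122 ± 20.1 CPM in female soma, and 15.5 ± 4.00 CPM in male PGCs and 34.1 ± 5.37 CPM in male soma. It was lower in PGCs of both sexes (-1.51 ± 0.13 and -0.75 ± 0.13, adjusted p 1.1e-07 and 0.00012).

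Of the 2 nidogens, which link laminin to collagen IV, Nid2 was at soma level in PGCs and Nid1 was not. Nid2 (chromosome 14) had 241, 223 and 328 CPM in female PGCs against 278, 233 and 285 CPM in female soma, and 330, 477 and 349 CPM in male PGCs against 333, 299 and 346 CPM in male soma. The groups overlapped in both sexes. The male difference was called by a narrow margin (0.28 ± 0.12, adjusted p 0.049), with an adjusted p of 0.11 by voom on the reads. Without male PGC replicate 2, which had the 477 CPM, it was 0.14 with an adjusted p of 0.26, and the call was also lost without any 1 of the male soma libraries, female PGC replicate 1 or female soma replicate 1. Nid2 shares 8.45% of its exon bases with Rtraf on the opposite strand, and whether counting used strand is not stated. Nid1 (chromosome 13) had 5.01, 8.21 and 3.16 CPM in female PGCs against 444, 340 and 467 CPM in female soma, and 25.1, 23.0 and 21.1 CPM in male PGCs against 648, 770 and 698 CPM in male soma.

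Hspg2, which encodes perlecan (chromosome 4, 137468769-137570630), had 271, 244 and 274 CPM in female PGCs, against 387, 347 and 532 CPM in female soma. It had 49.5, 22.1 and 48.8 CPM in male PGCs, against 555, 582 and 592 CPM in male soma. The difference was -0.53 ± 0.18 in females (adjusted p 0.014) and -2.97 ± 0.18 in males (adjusted p 1.6e-09). Without female soma replicate 3 the female difference was -0.38 with an adjusted p of 0.067. Col18a1, the precursor of endostatin, averaged 272 ± 41.6 CPM in female PGCs and 310 ± 17.0 CPM in female soma, which overlapped, and 191 ± 52.0 CPM in male PGCs and 441 ± 15.8 CPM in male soma, which did not. The related Col15a1 was at 4.16% and 0.147% of soma in female and male PGCs.

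**Figure D4:**
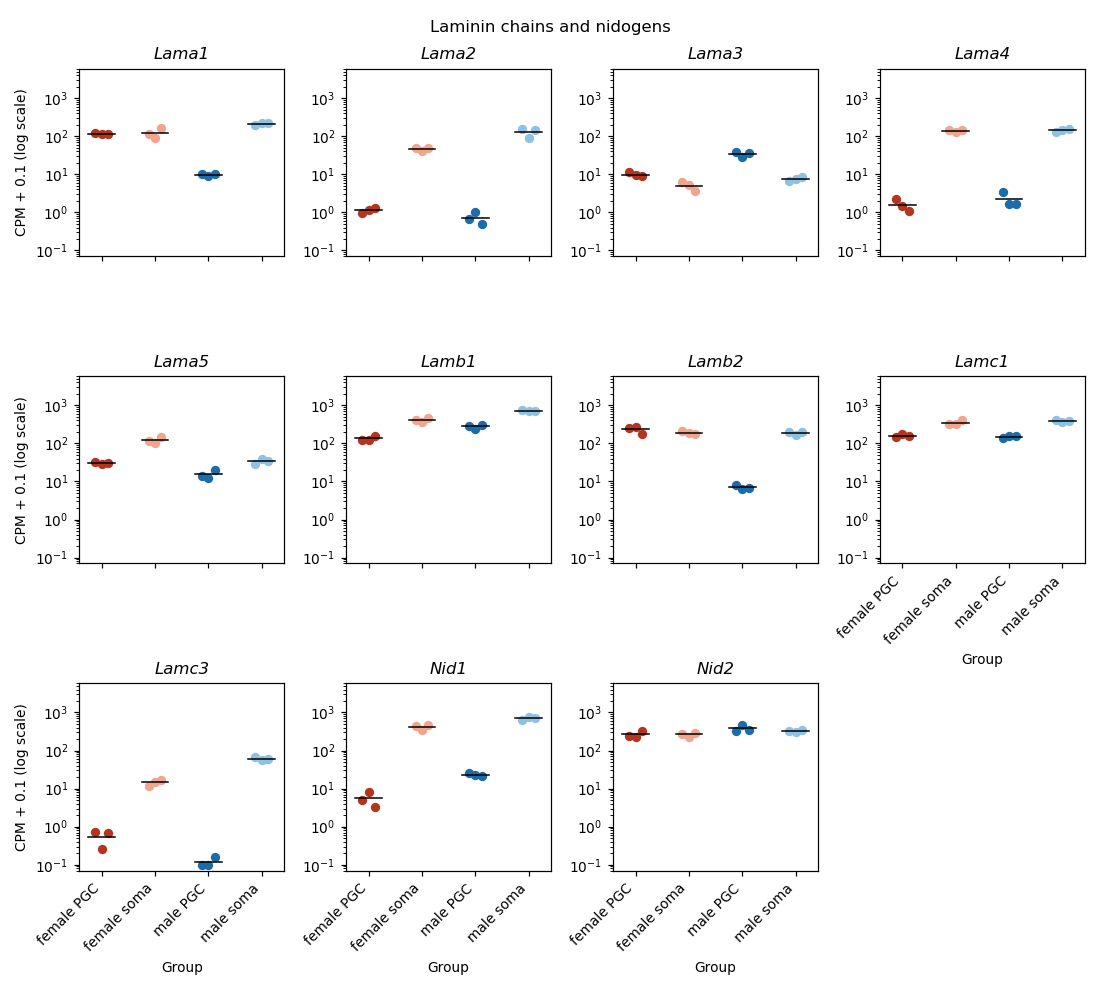
Laminin chains (9) and nidogens in each library, as CPM + 0.1 on a log axis, with points for libraries and black lines for group means. Lamb1, Lamc1 and Nid2 lie within about the same decade in all groups, Lama1 and Lamb2 are low only in male PGCs, Lama3 is highest in male PGCs (28.4 to 39.3 CPM), and Lama2, Lama4 and Lamc3 are low in PGCs of both sexes.

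Collagen VI, the beaded filament collagen that links cells to the interstitial matrix, was low in PGCs. All 6 chains were called lower in PGCs of both sexes, but 5 of the 6 reached the deposited filter only in soma, which all but fixes that call. The chains had medians of -4.29 in females and -3.54 in males. Col6a1 averaged 4.76 ± 4.62 CPM in female PGCs and 779 ± 84.2 CPM in female soma, and 2.53 ± 1.49 CPM in male PGCs and 1226 ± 155 CPM in male soma (SD, n = 3 each). Col6a2, which lies near Col6a1 on chromosome 10 with 85161 bases between them, was at 0.668% and 0.351% of soma in female and male PGCs. Col6a3 departed from its partners in male PGCs, where it had 17.4, 5.37 and 12.3 CPM, against 411, 423 and 442 CPM in male soma. In female PGCs it had 0.940, 1.70 and 0.574 CPM, against 494, 466 and 554 CPM in female soma.

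Fibril-associated collagens decorate the surface of other fibrils, and they split by type. Col12a1, Col14a1 and Col16a1 were at 0.639%, 0.408% and 0.299% of soma in female PGCs and at 0.761%, 4.09% and 0.424% in male PGCs. Type IX collagen, best known from cartilage, behaved differently. Col9a1 had 6.85, 4.80 and 11.7 CPM in female PGCs against 1.78, 3.53 and 1.65 CPM in female soma, and 5.78, 7.51 and 9.20 CPM in male PGCs against 1.86, 3.87 and 1.79 CPM in male soma. PGCs were above soma without overlap in both sexes (0.73 ± 0.18 and 0.76 ± 0.18, adjusted p 0.0021 and 0.0014). Col9a1 reached the deposited filter only in PGCs, which all but fixes that direction. Col9a2 was lower in PGCs, at 11.1% and 20.9% of soma in females and males. Col9a3 had 13.2, 9.61 and 12.3 CPM in female PGCs against 8.11, 13.501 and 3.56 CPM in female soma, and 15.9, 7.79 and 7.51 CPM in male PGCs against 101, 108 and 112 CPM in male soma. Of the 3 type IX chains, Col9a2 was thus the one called lower in female PGCs.

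Col22a1, a collagen known from tissue junctions, had 14.8, 16.9 and 15.5 CPM in female PGCs, against 10.003, 8.90 and 6.61 CPM in female soma. It was called higher there (0.53 ± 0.22, adjusted p 0.036), and the call was lost when any 1 of the 6 female libraries other than soma replicate 1 was left out. Without female soma replicate 3 the difference was 0.44 with an adjusted p of 0.11. In male PGCs it was lower (-0.85 ± 0.22, adjusted p 0.0024), at 7.98, 1.80 and 1.86 CPM, against 9.39, 11.9 and 11.1 CPM in male soma. Among the other collagens, Col7a1, Col8a2, Col13a1, Col23a1, Col25a1 and Col26a1 were all called lower in PGCs of both sexes, with medians of -3.09 in females and -3.87 in males. Of all genes, 42.3% (female) and 43.7% (male) were called lower. Of these 6 collagens 4 reached the deposited filter only in soma, which all but fixes their direction. Col26a1 was the lowest relative to soma, at 0.491% and 0.264% in female and male PGCs, and Col23a1 was at 12.4% and 0.692%.

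Elastic fibre genes were low in PGCs except, in females, for the fibulins Fbln1 and Fbln7. Elastin itself (Eln) had 0.224, 0.930 and 0.191 CPM in female PGCs against 189, 216 and 192 CPM in female soma, and 0.143, 0.123 and 0.113 CPM in male PGCs against 341, 253 and 306 CPM in male soma. Fibrillin 1 (Fbn1), the backbone of microfibrils, averaged 6.03 ± 0.675 CPM in female PGCs and 310 ± 43.4 CPM in female soma, and 2.15 ± 0.442 CPM in male PGCs and 637 ± 53.4 CPM in male soma. Its exons share 20.1% of their bases with the antisense gene Gm9913. Fibrillin 2 (Fbn2), the form typical of embryos, was at 2.83% and 5.78% of soma in female and male PGCs. Fbln1, a fibulin found in many basement membranes, had 128, 133 and 123 CPM in female PGCs against 228, 191 and 231 CPM in female soma, and 20.1, 25.4 and 32.3 CPM in male PGCs against 222, 173 and 204 CPM in male soma. Its fall was -0.60 ± 0.11 in females and -2.18 ± 0.11 in males (SE, adjusted p 0.00018 and 3.2e-10). Fbln7 averaged 3.52 ± 1.78 CPM in female PGCs and 2.93 ± 0.883 CPM in female soma, and 0.817 ± 0.583 CPM in male PGCs and 12.0 ± 1.69 CPM in male soma.

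The small leucine-rich proteoglycans decorin (Dcn), biglycan (Bgn) and lumican (Lum), which bind and space collagen fibrils, had low summed levels in PGCs. Together they had 0.478 to 4.65 CPM in female PGCs against 852.2 to 974.8 CPM in female soma, and 0.656 to 4.80 CPM in male PGCs against 804.6 to 940.2 CPM in male soma. Their sums amounted to 0.276% and 0.282% of soma, and all 3 genes reached the deposited filter only in soma. Dcn averaged 0.582 ± 0.371 CPM in female PGCs and 390 ± 18.1 CPM in female soma, and 0.996 ± 1.26 CPM in male PGCs and 258 ± 39.9 CPM in male soma.

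Fibronectin (Fn1, chromosome 1, 71585520-71653200), the main adhesive protein of loose embryonic matrix, stood at 96.7% of the male soma level in male PGCs and at 42.9% of the female soma level in female PGCs. It had 484, 431 and 491 CPM in female PGCs, against 1162, 829 and 1288 CPM in female soma. It had 931, 955 and 1072 CPM in male PGCs, against 987, 1041 and 1032 CPM in male soma. The male groups overlapped (0.06 ± 0.10, adjusted p 0.63), and female PGCs were lower (-0.96 ± 0.10, adjusted p 1.1e-06). Like Nid2, Lamb1 and Lamc1, it had at least 126 CPM in each of the 12 libraries. Sparc, a collagen-binding matricellular protein, averaged 85.0 ± 8.25 CPM in female PGCs and 1093 ± 69.7 CPM in female soma, and 45.9 ± 10.03 CPM in male PGCs and 1719 ± 61.6 CPM in male soma. Postn (periostin) was at 0.0896% and 0.973% of soma in female and male PGCs.

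The Adamts proteases cut procollagens and proteoglycans, and 17 of the 18 were called lower in PGCs of each sex, where 42.3% (female) and 43.7% (male) of all genes were. Of the 18 genes 10 reached the deposited filter only in soma, which all but fixes their direction. Those highest in soma per length were Adamts1, Adamts10, Adamts7 and Adamts2. Adamts1, an aggrecan and versican protease, averaged 0.328 ± 0.267 CPM in female PGCs and 198 ± 23.1 CPM in female soma, and 0.394 ± 0.174 CPM in male PGCs and 156 ± 9.34 CPM in male soma. Adamts2, which removes the N-propeptide of type I procollagen, was at 9.46% of soma in female PGCs and 0.626% in male PGCs. Adamts10, which binds fibrillin microfibrils, was at 13.4% and 5.85%, and Adamts7 at 14.2% and 0.810%. Adamts3, another procollagen N-proteinase, had 13.8 to 16.0 CPM in female PGCs against 14.7 to 18.2 CPM in female soma, and 2.20 to 3.06 CPM in male PGCs against 8.63 to 12.2 CPM in male soma. It was the one Adamts gene that did not pass the test in females (-0.09 ± 0.12, adjusted p 0.53). Adamts13, the protease of von Willebrand factor, had 26.9, 16.9 and 19.4 CPM in male PGCs against 10.7, 14.6 and 12.9 CPM in male soma, and was called higher there (0.54 ± 0.20, adjusted p 0.021). Without male PGC replicate 1 this difference was 0.41 with an adjusted p of 0.093, and without male soma replicate 1 it was 0.47 with an adjusted p of 0.072. In females it ran the other way, at 4.03, 1.55 and 4.59 CPM in PGCs, against 16.6, 9.05 and 16.4 CPM in soma (-1.16 ± 0.20, adjusted p 8.8e-05).

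The cell number table scales the same reads to the number of cells, by means of added spike-in RNA. On that scale the median of all genes was 2.36 higher in female PGCs and 1.42 higher in male PGCs than in soma. In female PGCs 19 of the 83 matrix genes were called higher and 48 lower, where 77.2% of all genes were called higher and 11.5% lower. In male PGCs 8 were called higher and 66 lower, where 64% of all genes were called higher and 19.8% lower. The fibrillar collagens remained low, with medians of -2.37 in females and -4.63 in males. The basement membrane genes had a median of 0.81 in females, where 9 were called higher and 8 lower. In males their median was -3.31, and 3 were called higher and 14 lower, with 6 higher and 14 lower without male soma replicate 3. Per cell Col1a1 differed by -7.27 ± 0.28 in females and -7.00 ± 0.28 in males (SE).

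The genes higher per cell in PGCs of both sexes included Lama3 (3.41 ± 0.41 in females and 3.80 ± 0.41 in males, SE), Col9a1 (4.13 ± 0.54 and 3.26 ± 0.54) and Nid2 (2.41 ± 0.28 and 1.85 ± 0.28). For Col9a1 the direction was all but fixed, since it reached the deposited filter only in PGCs. In females Lamb2 rose by 2.70 ± 0.29, Lama1 by 2.37 ± 0.29 and Col18a1 by 2.23 ± 0.28 per cell. For Lama1, Col18a1 and Nid2 in females these values lay close to the shift of all genes. Fn1 rose by 1.23 ± 0.29 per cell in female PGCs, Hspg2 by 1.77 ± 0.28, Fbln1 by 1.67 ± 0.28, Lamc1 by 1.29 ± 0.28 and Lamb1 by 0.83 ± 0.28, and each of these turned negative when library medians were set equal. The same held in female PGCs for Col2a1 (1.74 ± 0.41), Col5a3 (1.33 ± 0.43) and Adamts14 (1.24 ± 0.37). In male PGCs Fn1 rose by 1.57 ± 0.29 and Lamb1 and Lamc1 did not pass the test (0.26 ± 0.28 and 0.25 ± 0.28, adjusted p 0.38 and 0.39). Col4a2 in female PGCs also did not pass it (0.41 ± 0.28, adjusted p 0.16). With library medians set equal, 5 of the 83 genes were called higher per cell in female PGCs, namely Lama3, Col9a1, Col22a1, Col9a3 and Lamb2.

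Set between the sexes per cell, 2 of the 83 genes were called higher and 42 lower in female soma, where 2.86% of all genes were called higher and 63.6% lower. In PGCs 41 were higher and 15 lower in females, where 24.3% of all genes were called higher and 17.7% lower. For the female minus male difference of PGCs against soma, 46 were higher and 6 lower, where 42.8% of all genes were called higher and 5.16% lower. The median shift of all genes was -0.86 in soma, 0.08 in PGCs and 0.91 for the difference between them. Male soma replicate 3 bore on these values, since without it the shift was -0.54 in soma and 0.58 for the difference, and 3 of the 83 genes were called higher and 27 lower in female soma.

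Between the sexes of soma, more basement membrane genes were called lower than higher in females, and the number of fibrillar collagens called depended on the test. Of the 83 genes, 12 were called higher and 21 lower in female soma, where 13.3% of all genes were called higher and 11% lower. The number called higher was 19 with array weights and 24 by voom, where 2326 and 1708 of all 12845 genes were. Among 21 basement membrane genes 2 were higher and 11 lower in female soma, with a median difference of -0.43. Of the 11 fibrillar collagens 1, Col5a3, was higher and 10 did not pass the test, with a median of 0.33. The call for Col5a3 (0.80 ± 0.25, adjusted p 0.033) was lost without female soma replicate 2, at 0.51 with an adjusted p of 0.14, and without male soma replicate 1 or 2. Col1a1, at 4775 to 5684 CPM in female soma and 2484 to 3415 CPM in male soma, did not overlap between the sexes. It did not pass the test in the read depth table (0.69 ± 0.32, adjusted p 0.14) but did by voom on the reads (0.85, adjusted p 0.00014). By voom 4 fibrillar collagens were called higher in female soma and 0 lower, the others being Col5a2, Col5a3 and Col27a1 (adjusted p 0.026, 0.048 and 0.049), where 13.3% of all genes were called higher and 10.3% lower.

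Collagen IV genes were among those lower in female soma. Col4a1 was 6.81-fold lower in female than in male soma and Col4a2 5.54-fold lower (-2.38 ± 0.14 and -2.11 ± 0.11, adjusted p 5.2e-08 and 1.4e-08). Col4a4 was 10.9-fold lower (-2.38 ± 0.21, adjusted p 2.2e-06) and Col4a3 6.65-fold lower (-1.22 ± 0.14, adjusted p 2.5e-05). Col9a3 was 12.8-fold lower, at 3.56 to 13.501 CPM in female soma and 101 to 112 CPM in male soma (-2.85 ± 0.25, adjusted p 2.3e-06), and it shares 6.07% of its exon bases with Tcfl5 on the other strand. Lamc3 was 4.18-fold lower and the membrane collagen Col13a1 3.72-fold lower. Lama2, Col15a1, Lama1, Lamb1, Nid1 and Col18a1 completed the basement membrane genes called lower in female soma. The call for Col18a1 (-0.43) was lost without any 1 of the male soma libraries and without female soma replicate 1 or 2. It was also lost with no trend of the variance on intensity, and adjusted p reached 0.091 in these fits. Lamb2, at 181 to 210 CPM in female soma and 170 to 203 CPM in male soma, did not differ beyond its spread (0.00 ± 0.12, adjusted p 0.99).

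The genes higher in female soma were mostly of other classes. Postn had 466, 654 and 412 CPM in female soma, against 125, 85.0 and 198 CPM in male soma (1.66 ± 0.29, adjusted p 0.001). Lama5 had 119, 103 and 143 CPM in female soma, against 28.4, 39.0 and 34.9 CPM in male soma (1.39 ± 0.13, adjusted p 4.4e-06). Adamts15 was 3.07-fold, Col6a6 3.07-fold, Col12a1 2.83-fold and Col8a2 2.12-fold higher in female soma. The call for Col12a1 (1.25 ± 0.39, adjusted p 0.030) was lost when any 1 of the 6 soma libraries was left out, with an adjusted p of up to 0.097, and that for Col8a2 without male soma replicate 2.

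The makeup of the 2 somas differed as well. The Sertoli markers summed to 383.2 to 558.2 CPM in female soma and 1278 to 1350 CPM in male soma, and their members did not run one way. Amh, a hormone of Sertoli cells, averaged 1.34 CPM in female soma and 437 CPM in male soma, whereas Wt1, which other somatic cells of the gonad also express, averaged 293.7 CPM in female soma and 151.4 CPM in male soma. The pregranulosa markers summed to 512.4 to 597.4 CPM in female soma and 167.6 to 217.0 CPM in male soma. Fetal Leydig markers summed to 71.3 to 90.7 CPM in female soma and 3859 to 5284 CPM in male soma, stromal markers to 2113 to 2532 CPM and 2850 to 3003 CPM, and erythroid markers to 17590 to 29540 CPM and 3383 to 8578 CPM. Macrophage markers summed to 258.1 to 446 CPM in female soma and 130.4 to 185.6 CPM in male soma. Mesonephric duct markers summed to 115.4 to 203.6 CPM and 54.43 to 75.05 CPM. The endothelial sums overlapped, at 140.1 to 174.1 CPM and 108.6 to 173.6 CPM, but their members ran both ways. Kdr averaged 75.4 CPM in female and 42.0 CPM in male soma, and Cdh5 18.2 and 40.25 CPM. Tek, Emcn and Egfl7 had higher means in female soma, and Tie1 and Esam lower means. Among the stromal markers Dlk1 (1035 and 748 CPM) and Twist2 (37.8 and 17.6 CPM) averaged higher in female than in male soma, and the others averaged lower. The part of this makeup in the sex differences of matrix genes was not tested.

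Between the sexes of PGCs, 36 of the 83 genes were called higher and 15 lower in female PGCs, where 32.8% of all genes were called higher and 32.5% lower. Basement membrane genes were 11 higher and 4 lower, with a median difference of 0.62, and fibrillar collagens were 2 higher and 0 lower, around a median of 0.05. Those called were Col5a1 (0.91 ± 0.20, adjusted p 0.0011) and Col27a1 (1.31 ± 0.17, adjusted p 1.3e-05). The largest differences were those of Lamb2 (3.67 ± 0.12, adjusted p 1.1e-10), Lama1 (2.55 ± 0.13, adjusted p 3.9e-09), Col4a2 (2.31 ± 0.11, adjusted p 1.8e-09) and Hspg2 (2.03 ± 0.18, adjusted p 3.4e-07). In CPM these 4 genes were 34.0-fold, 12.1-fold, 10.1-fold and 6.56-fold higher in female PGCs, and the values of the sexes did not overlap. The basement membrane genes lower in female PGCs were Nid1 (4.22-fold), Lama3 (3.53-fold), Lamb1 (2.08-fold) and Nid2 (1.46-fold).

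The genes lower in female PGCs by the most were outside the basement membrane. Col6a3 was 10.9-fold lower (-2.18 ± 0.24, adjusted p 3.4e-06) and Fbln2, a fibulin of elastic and basement membrane matrices, 7.38-fold lower (-1.84 ± 0.17, adjusted p 6.6e-07). Col14a1 was 7.70-fold lower (-1.83 ± 0.18, adjusted p 9.6e-07), and Adamts16 was 9.64-fold lower, at 0.0956 to 0.930 CPM in female PGCs and 2.71 to 4.49 CPM in male PGCs (-1.68 ± 0.21, adjusted p 7.8e-06). In soma none of these 4 passed the test between the sexes in the read depth table, and by voom on the reads Col14a1 was called higher in female soma (0.38, adjusted p 0.016). The stromal marker sum was 22.3 to 33.2 CPM in female PGCs and 6.93 to 14.2 CPM in male PGCs. Dlk1 averaged 17.7 and 4.59 CPM there, whereas Pdgfra averaged 2.77 and 2.63 CPM and Nr2f2 3.06 and 2.37 CPM. The Sertoli marker sum was 21.1 to 38.7 CPM in female PGCs and 72.6 to 153.4 CPM in male PGCs. Its members did not all run this way, with Sox8 at 9.17 and 3.02 CPM and Fgf9 at 1.38 and 0.603 CPM, while the others were higher in male PGCs. The part of either cell type in these 4 genes was not tested.

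The difference between PGCs and soma therefore depended on sex for many matrix genes. In the test of that difference, female minus male, 34 of the 83 genes were called higher and 16 lower, where 27.9% of all genes were called higher and 28.9% lower. Of the basement membrane genes 12 were higher and 3 lower, and their median was 1.19. Among the 13 of them that reached the deposited filter in both fractions 6 were higher and 3 lower, and the median was 0.10. Of the fibrillar collagens 2 were higher and 2 lower, and their median was -0.11, but only 1 was lower without male PGC replicate 3, male soma replicate 2 or 3, female PGC replicate 1 or 3, or female soma replicate 2 or 3. Col4a2, Col4a1, Lamb2 and Lama1 had the highest values in the read depth table, at 4.41 ± 0.15, 3.86 ± 0.20, 3.68 ± 0.17 and 3.24 ± 0.19 (SE, adjusted p 3.5e-10, 1.3e-08, 4.5e-09 and 3.2e-08). For Lamb2 the soma values of the sexes overlapped and those of the PGCs did not. For Col4a1, Col4a2 and Lama1 both fractions differed, with lower values in female soma and higher values in female PGCs than in males. Postn, Col6a3, Col14a1 and Adamts13 had the lowest there, at -2.46 ± 0.42, -2.36 ± 0.35, -2.12 ± 0.25 and -1.70 ± 0.28 (adjusted p 0.00023, 6.8e-05, 1.2e-05 and 0.00017). By voom on the reads the Postn value was -3.66 with an adjusted p of 0.16, where the PGC libraries hold few Postn reads.

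**Figure D5:**
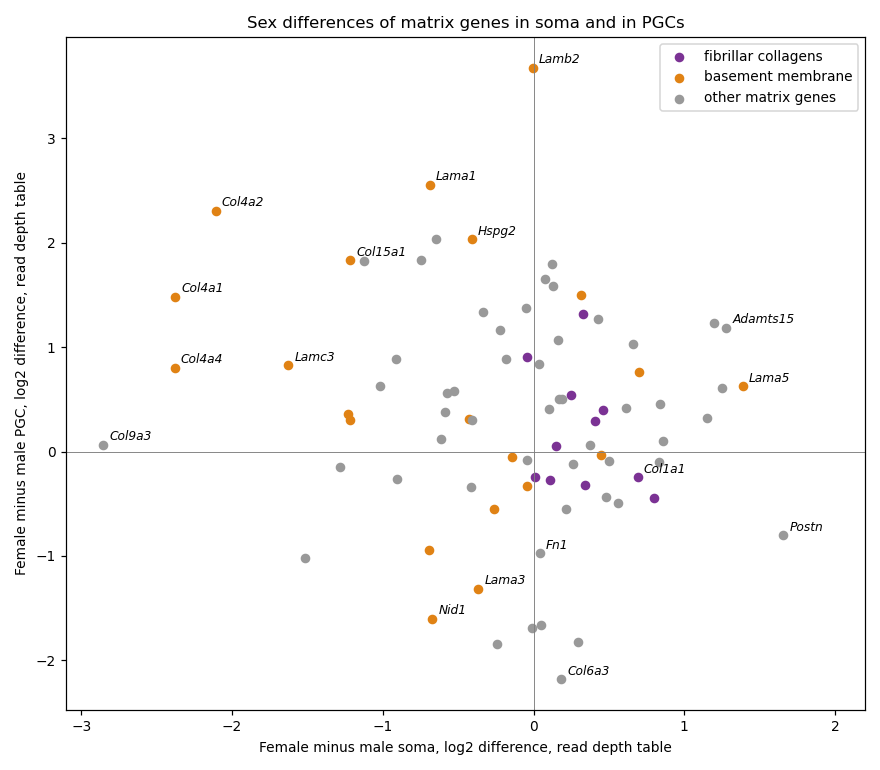
Female minus male difference of each matrix gene in soma (horizontal axis) and in PGCs (vertical axis), both as log2 differences in the read depth table, with fibrillar collagens in purple, basement membrane genes in orange and the other matrix genes in grey. Fibrillar collagens lie within 1.31 of 0 on both axes, Col4a1, Col4a2 and Lama1 lie in the upper left (lower in female soma, higher in female PGCs), and Lamb2 lies at the top with no difference in soma.

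Of the genes that act on these proteins, more were called lower than higher in PGCs. Over all genes 38.7% were called higher and 42.3% lower in female PGCs, and 39.1% higher and 43.7% lower in male PGCs. The counts of the 3 lists that follow stand against these shares. The listed genes passed the same deposited filter. Those that did so only through soma, such as Lox, Loxl2 and Ddr2, could hardly be other than lower in PGCs, and their number was not taken out of the counts. Of 26 measured genes for collagen folding, export and cross-linking, 1 was called higher and 21 lower in female PGCs, and 1 higher and 23 lower in male PGCs, with medians of -0.99 and -1.91. Lysyl oxidase (Lox), which cross-links collagen and elastin, averaged 0.290 ± 0.422 CPM in female PGCs and 132 ± 7.76 CPM in female soma, and 0.0956 ± 0.166 CPM in male PGCs and 63.1 ± 10.5 CPM in male soma. Its relative Loxl2 fell by 4.77 ± 0.17 in female and 5.40 ± 0.17 in male PGCs on the log2 scale. The procollagen C-proteinase Bmp1 averaged 13.8 ± 1.91 CPM in female PGCs and 452 ± 93.1 CPM in female soma, and 1.15 ± 0.464 CPM in male PGCs and 417 ± 33.7 CPM in male soma. Its enhancer Pcolce fell by 4.81 ± 0.29 and 5.46 ± 0.29, whereas the second enhancer Pcolce2 rose by 1.02 ± 0.12 and 0.65 ± 0.12 (adjusted p 2.5e-06 and 0.00017), with means of 6.20 and 2.54 CPM in female and male PGCs. Pcolce2 passed the deposited filter only through the female PGC libraries, so in females it could hardly be other than higher in PGCs.

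Of 10 measured collagen and laminin receptor genes, 1 was called higher and 9 lower in female PGCs, and 0 higher and 9 lower in male PGCs, with medians of -1.37 and -1.20. The fibrillar collagen receptor Ddr2 averaged 0.550 ± 0.202 CPM in female PGCs and 171 ± 22.4 CPM in female soma, and 3.33 ± 1.04 CPM in male PGCs and 71.8 ± 8.87 CPM in male soma. The laminin alpha 5 receptor Bcam fell by 2.65 ± 0.21 and 4.06 ± 0.21, and the laminin-binding integrin subunit Itga3 by 2.54 ± 0.15 and 2.82 ± 0.15, in female and male PGCs. Dystroglycan (Dag1), a laminin receptor, averaged 332 ± 4.04 CPM in female PGCs and 280 ± 27.2 CPM in female soma, and 357 ± 12.1 CPM in male PGCs and 402 ± 18.5 CPM in male soma. It was called higher in female PGCs (0.20 ± 0.06, adjusted p 0.0081) and did not pass the test in males (-0.04 ± 0.06, adjusted p 0.52).

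Of 13 measured matrix metalloproteinases and inhibitors, 1 was called higher and 10 lower in female PGCs, and 0 higher and 13 lower in male PGCs, with medians of -2.25 and -2.62. Mmp2, a gelatinase, averaged 4.97 ± 1.32 CPM in female PGCs and 544 ± 103 CPM in female soma, and 5.97 ± 0.951 CPM in male PGCs and 598 ± 9.67 CPM in male soma. Mmp14, its membrane-bound activator, fell by 4.54 ± 0.21 and 5.01 ± 0.21, and the inhibitor Timp3 by 4.71 ± 0.18 and 5.16 ± 0.18. The inhibitor Timp2 fell by 3.41 ± 0.23 in female and 5.29 ± 0.23 in male PGCs. Mmp17 was the one called higher in female PGCs, at 30.4 ± 0.424 CPM against 11.1 ± 0.284 CPM in female soma (0.93 ± 0.10, adjusted p 1.5e-06).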

How the data were processed

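RNA of 12 libraries was analysed, and groups and replicate numbers came from the sample titles. The matrix genes, their classes and the other lists were chosen with earlier results of these data known. The 2 deposited tables hold log2 values for 12845 genes, scaled by the authors to cell number (the abbreviation CNN was so read, since spike-in RNA was added per cell, per the labels' protocols) and to read depth. The submitters' processing notes name build mm10 and, as tools, limma 3.28.14, edgeR 3.14.0 and DESeq2 1.12.3 in R 3.3.0, HTSeq 0.6.1p1, TopHat2 2.0.9 and Trim Galore 0.4.0. Their roles, the annotation, the strand setting, the gene filter and the transform of the read depth values are not stated there or in the labels.

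Of the values by cell number, 100% equalled log2 of a whole number plus 0.5 times a library factor, within 0.001 reads. These reads gave depth and CPM. The chi-square per degree of freedom between replicates was 5.34 to 29.5, above sampling noise, and the labels give no batch. Intervals are not given for counts, since SDs and SEs cover the spread between libraries, and the limit for 0 reads covers counting error only.

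Both tables were fitted with limma 3.58.1 (R 4.3.3), with the mean of each of 4 groups, a trend of the variance on intensity, and adjusted p-values (Benjamini-Hochberg) over 12845 genes. The steps were tested on simulated data. As alternatives, single libraries or the lowest 25% of genes were left out, or the fit used a log2 difference of at least 1, median centring, no trend, array weights, a replicate block, voom on the reads and the other table. Genes were located in GENCODE vM21 (GRCm38) by symbol, and 24 of the 83 share exon bases with another gene, 1 of them over 10%. Genes were named by level per length in soma (4 per class), as collagen IV, laminin or nidogen chains, as higher in PGCs, or by size of sex difference. Others named as members of a called group or to complete a class were chosen after their values were seen. 1 of the 83 genes enters all counts and is not reported by name here. Summaries used numpy 2.4.6 and pandas 2.3.3 in Python 3.11.15, and figures matplotlib 3.10.9.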

Additional observations from a re-analysis of the deposited data

Results flagged for a closer look

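The difference between PGCs and soma differed between the sexes, by limma's test of that difference in the read depth table, for 8 genes named on this ground. On the log2 scale, female minus male, the values were 4.41 for Col4a2, 3.86 for Col4a1, 3.68 for Lamb2 and 3.24 for Lama1. They were -2.46 for Postn, -2.36 for Col6a3, -2.12 for Col14a1 and -1.70 for Adamts13. In all 8 the adjusted p was under 0.05. Groups of 3 libraries were examined for outlying libraries by leaving out single libraries in turn. The calls of all 8 genes were kept in these fits. By voom on the reads the call for Postn was lost.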

How the results depend on the processing

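Of 322 results of named genes, settings other than leaving out a library kept direction and side of the threshold in 2057 cases and lost the call in 106. In 9 cases they gave the opposite sign, whether or not it passed the test. Leaving out a library kept it in 3776 cases and lost it in 88. The opposite signs came from the cell number table for Adamts3 in soma (-0.17) and from median centring of that table. There female Adamts14 became -0.96, Col2a1 -0.46, Col5a3 -0.87, Fbln1 -0.53, Fn1 -0.97, Hspg2 -0.43, Lamb1 -1.37 and Lamc1 -0.91. With the opposite sign Adamts3, Col2a1, Col5a3 and Hspg2 did not pass limma's test (adjusted p 0.72, 0.19, 0.090 and 0.11), and the others did.

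Without the lowest 25% of genes, members called were 3 higher in male PGCs, 1 higher in female PGCs and 5 higher in female soma. Of all 9634 genes left, 4308, 4199 and 879 were called so. Per cell the members called were 5 higher and 42 lower in male PGCs and 31 lower in female PGCs, with fewer genes tested by construction. Of all genes left, 7143, 1114 and 508 were called so. A log2 difference of at least 1 left 1 higher in male PGCs and 0 in female PGCs, where 5 and 3 passed by adjusted p alone. It left 5 higher and 12 lower in female soma, 22 higher and 8 lower in female against male PGCs, and 9 lower for the difference between sexes. Median centring gave 5 higher in female PGCs by read depth and 5 per cell, where 5965 and 5690 of all 12845 genes were. Array weights gave 5 higher in female PGCs and 19 in female soma, where 5154 and 2326 of all 12845 genes were. By voom 24 were higher in female soma, where 1708 of all genes were. The cell number table gave 2 higher and 42 lower in female soma and 6 lower for the difference between sexes. The causes were not tested.

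Leaving out 1 library, the members called higher and lower ranged from 3 to 5 and 75 to 75 in male PGCs, 2 to 3 and 69 to 71 in female PGCs, 8 to 15 and 20 to 24 in female soma, 33 to 37 and 13 to 16 in female against male PGCs, and 31 to 37 and 15 to 20 for the difference between sexes. Per cell they ranged from 7 to 11 and 64 to 67 in males and 19 to 20 and 43 to 48 in females. The 3 came without male PGC replicate 2, male soma replicate 1 or male soma replicate 2.

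Samples with the same replicate number did not deviate together (correlations -0.36 to 0.07, 0 of 18 over 0.1). Of the 12 samples, 0 were closest to their own number. With deviations taken from means of 3 libraries, this check cannot exclude that same-numbered samples share an origin. The main fit used no pairing. With a replicate block 4 genes were higher and 75 lower in male PGCs and 3 and 70 in female PGCs, 11 and 21 in female soma, 35 and 15 in female against male PGCs and 33 and 15 for the difference between sexes, and per cell 8 and 66 in males and 19 and 48 in females.

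Depth limits the low genes: levels near 0.1 CPM rest on single reads, as for Lamc3 and Col4a3 in male PGCs, and small folds between such levels were not detectable at this depth.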
